A study of Mus musculus with 5 samples.

Results

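The genes described here are 49 mouse genes of mitosis and cytokinesis, found by symbol among the 23234 genes of a deposited expression table. They encode the cyclins and kinases that drive cells from G2 into M phase, kinetochore and checkpoint proteins, spindle motors and microtubule binders, centrosome proteins and the machinery that cuts the cell apart. All 49 symbols were in the table, and all 49 passed the filter on low values. The list was drawn up with earlier results of these data known, and 2 of its genes, Cetn3 and Mzt1, had been singled out there for their lower values.

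The samples were germinal centre B cells of the light zone, sorted from mouse spleen (C57BL/6 background) as donor cells that bound the hapten NP. Donors carried one knock-in allele of the B1-8hi immunoglobulin heavy chain and one of ERT2cre, a Cre recombinase switched on by tamoxifen, with the CD45.1/2 marks, and were either Csk(+/+) or floxed at both Csk alleles. Their naive B cells were moved into C57BL/6J hosts. The hosts received NP-CGG with alum by the intraperitoneal route on day 0. Both groups had tamoxifen on days 8 and 9, and sorting was on day 11. There were 3 Csk(+/+) libraries and 2 labelled Csk(f/f). The series title concerns the part of the kinase Csk in restraining reactive oxygen species made after B cell receptor signalling, and in germinal centre selection, and the comparison sets light zone cells with the floxed alleles against those without. Values of single genes are written as Csk(+/+) replicates 1, 2 and 3 against Csk(f/f) replicates 1 and 2.

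Germinal centre B cells cycle between 2 zones. Light zone cells compete for antigen and T cell help, and those that are selected move to the dark zone, where most division takes place. Transcripts of mitotic genes build up in late S and G2, peak in mitosis and are lost as cells enter G1, so in a sorted population their level follows the number of cells in those phases. In bulk RNA, fewer cells in G2 and M and less mitotic RNA in each such cell cannot be told apart.

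Each library rested on an estimated 9800000 to 23400000 fragments, and 13291 to 14981 genes were above 0. Csk transcript itself stood at 378, 436 and 415 against 453 and 476 FPKM (fragments counted relative to transcript length and library depth), so the deposited gene-level values do not show the deletion. The labels do not state which exons are floxed, and the second group is therefore called Csk(f/f)-labelled. The B cell receptor gene Cd79a was high in all 5 libraries (936 to 1388 FPKM), Bcl6, the master regulator of germinal centre B cells, stood at 55.6 to 81.7, and T cell genes Cd3e and Cd3g were listed at 0. Fold changes in these libraries followed the GC content of the transcript (Spearman rho 0.71 across 10119 genes, which are not independent replicates), and Csk(+/+) replicate 3 stood apart from the others (library weight 0.259, against 1.35 to 1.55). The main counts over the 49 genes are therefore also given after subtraction of the GC trend from each library, and without that library. For roles of 3 genes or more, counts of called genes are given on both scales, and without that library where it changes them by 1.5 times or more.

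Of the 49 mitosis and cytokinesis genes, 48 were lower on average in the group labelled Csk(f/f), and 1, Cdc25b, was higher. The median log2 fold change, on the log2(FPKM + 1) scale, was -0.56, where the median over all 10242 genes tested was -0.01 and 51.3% of them were below 0. In 44 of the 49 (89.8%) every Csk(f/f)-labelled library lay under every Csk(+/+) library, against 24.5% of all genes, and Cdc25b was the 1 gene with both Csk(f/f)-labelled libraries above, against 20.7% of all genes. In mean FPKM 26 of the 49 were at least 1.5 times lower, and 9 at least 2 times lower: Cetn3, Mzt1, Kif20b, Bub1, Ndc80, Fbxo5, Kif11, Nuf2 and Kif23. The shares of all genes at these cut-offs were not counted, and these means include the GC trend. The plot of FPKM by sample shows the shift gene by gene.

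**Figure D1:**
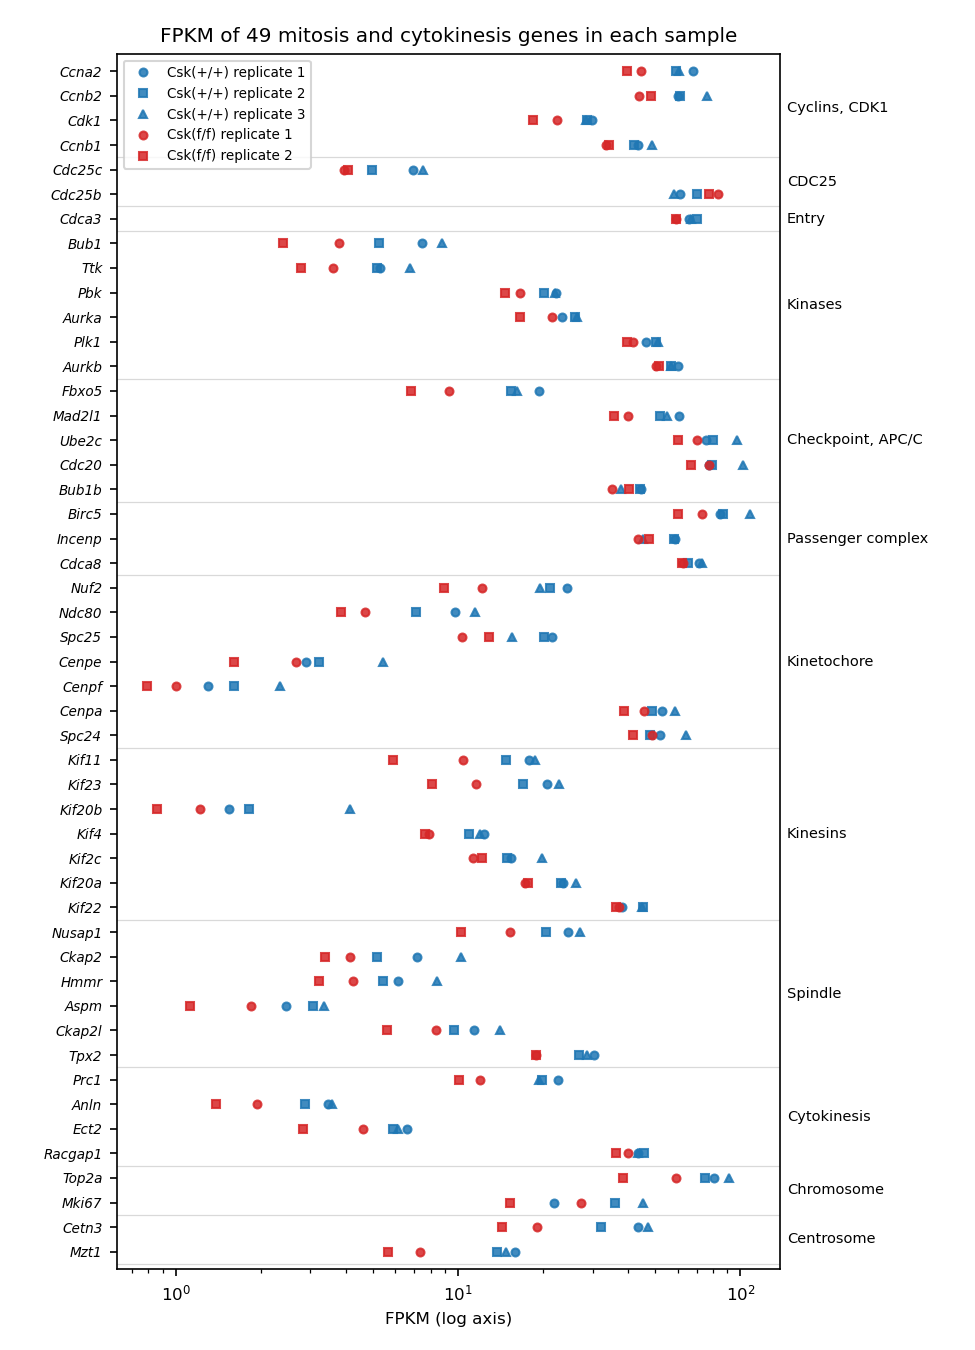
FPKM on a log axis of each of the 49 genes, grouped by role, with 1 symbol for each of the 5 libraries (blue, 3 Csk(+/+); red, 2 Csk(f/f)-labelled). In 44 genes both red symbols lie to the left of all blue ones, and in Cdc25b both lie to the right.

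No single gene of the 49 passed the threshold of a limma adjusted p under 0.05 over all genes (0 of 49, against 0.0781% of all genes), and their adjusted p-values ran from 0.128 for Mzt1 and Cetn3 to 0.510 for Bub1b. At an unadjusted p under 0.05 by limma, 35 of the 49 (71.4%) were lower, against 13.6% of all genes, and 1 was higher, against 8.07%. After the GC correction 48 were still below 0, with a median of -0.42 (all genes 0.00). Of these, 24 were lower at an unadjusted p under 0.05, against 5.07% of all genes, and 0 were higher, against 4.89%. In 34 (69.4%) the groups did not overlap, against 13.9% of all genes lower in that way. Again 0 passed the adjusted threshold by limma (0.0791% of all genes did), and the smallest adjusted p was 0.307. Of the 24 genes, 20 were also among the 35, and Aurkb, Plk1, Cdc20 and Incenp were counted after the correction alone.

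**Figure D2:**
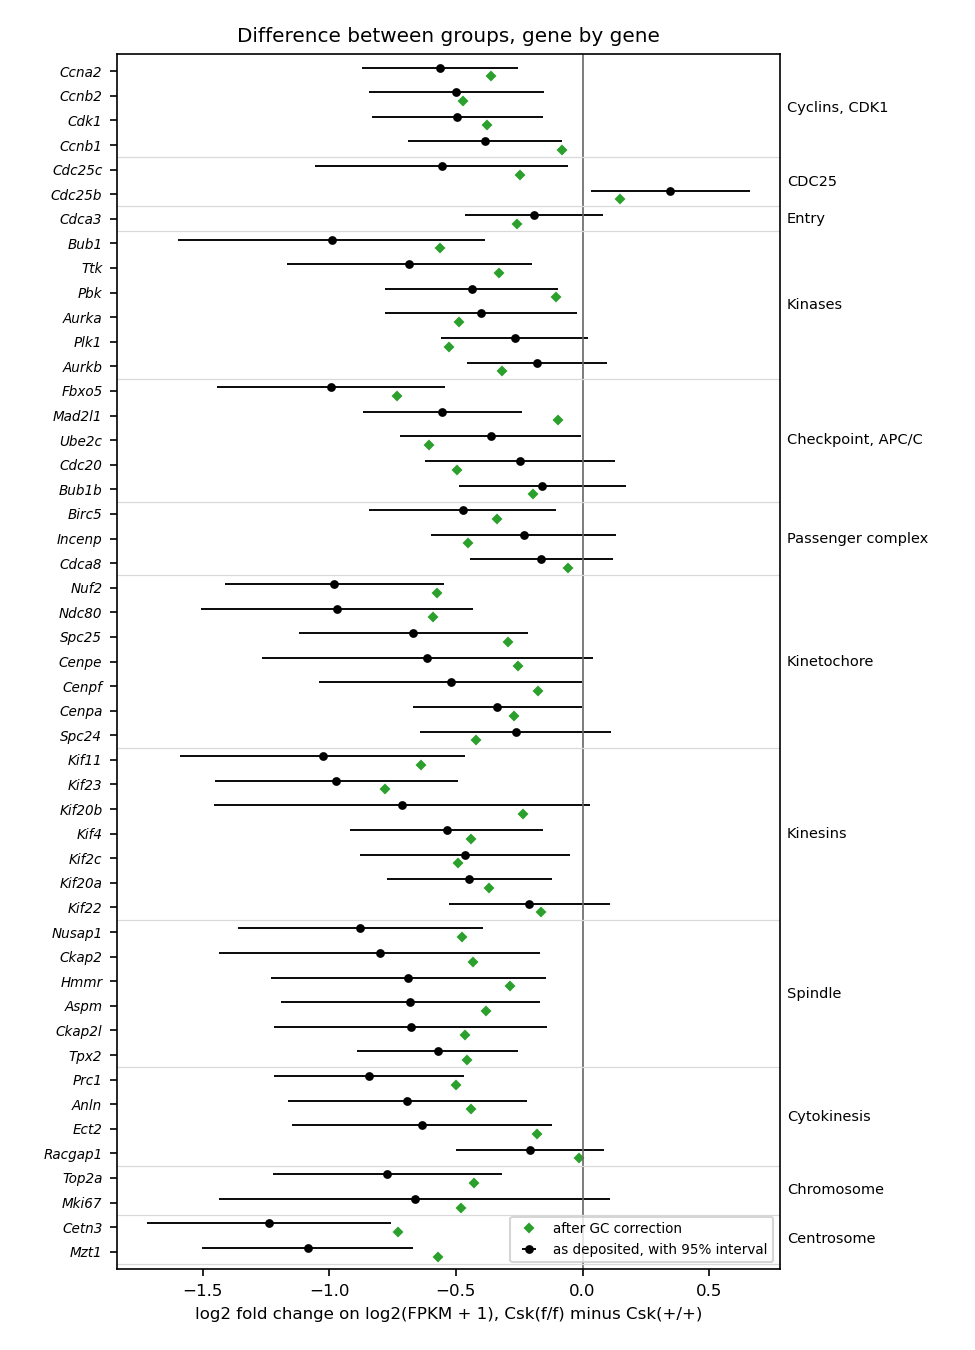
Log2 fold change on the log2(FPKM + 1) scale, Csk(f/f)-labelled minus Csk(+/+), for each of the 49 genes by role. Black circles with 95% intervals are the values as deposited and green diamonds those after the GC correction: 48 of 49 lie below 0 in both, and the diamonds cluster more narrowly.

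The counts depended on single libraries more than the direction did. Without Csk(+/+) replicate 3, 8 of the 49 genes passed the adjusted threshold by limma, all lower, against 2.79% of all genes called lower: Ccna2, Cetn3, Fbxo5, Kif23, Mzt1, Nuf2, Prc1 and Spc25, with adjusted p-values from 0.0315 to 0.0490. In that fit 48 were below 0, and 33 were lower at an unadjusted p under 0.05, against 21.4% of all genes. The groups did not overlap in 46, against 38.4% of all genes lower in that way, and 23 and 6 genes were at least 1.5 and 2 times lower, counts chosen after seeing the data. For these fold cut-offs the shares of all genes were again not counted. With the GC correction as well, the median was -0.28, 43 of the 49 were below 0 and 23 were lower at that unadjusted p, against 9.84% of all genes, and 0 passed when adjusted. Without Csk(f/f) replicate 2 the median was -0.47 and 13 were lower at that p (3.66% of all genes), and with the GC correction -0.29 and 5 (1.81% of all genes). With 1 library left in the group, such a fit assumes that it varies as the others do.

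Libraries of each group also differed from each other in these genes. Their summed level was 1607, 1561 and 1742 FPKM (1637 ± 93.9, SD, n = 3) against 1285 and 1153 (1219 ± 93.7, SD, n = 2). The 2 groups do not overlap in that sum, which made up 0.242% of all FPKM in the first group and 0.175% in the second. Csk(+/+) replicate 3 had the highest value of the 5 libraries in 30 of the 49 genes, and in 39 after the GC correction. Csk(f/f) replicate 2 had the lowest in 38, and in 35 after the correction, and the median gap from Csk(f/f) replicate 1 to replicate 2 was -0.23 for these genes and 0.00 for all genes tested.

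**Figure D3:**
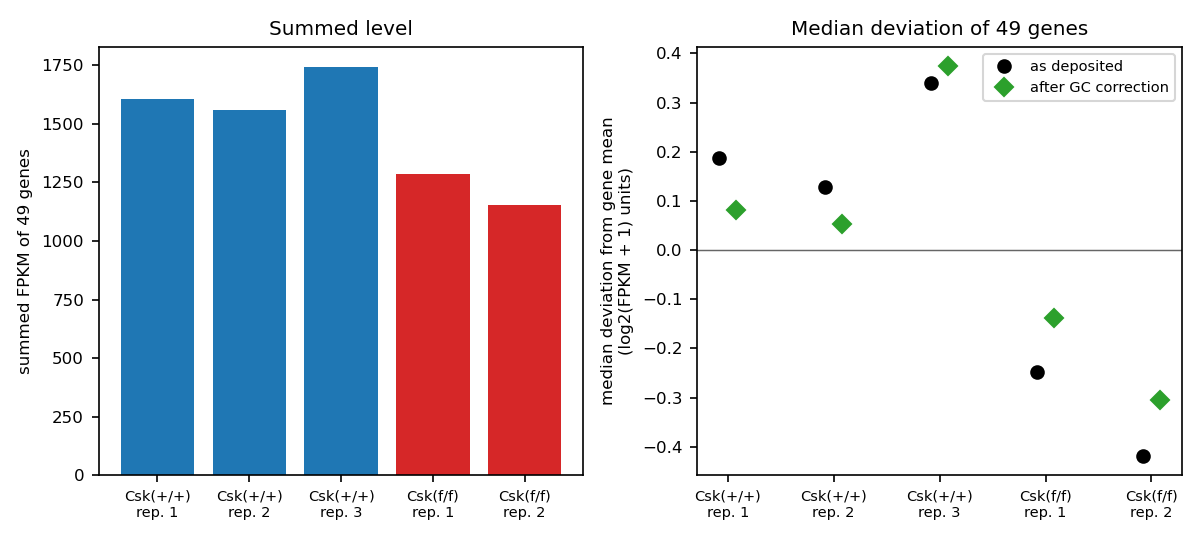
Left, summed FPKM of the 49 genes in each library, from 1153 in Csk(f/f) replicate 2 to 1742 in Csk(+/+) replicate 3. Right, the median deviation of the 49 genes from their own mean over the 5 libraries, as deposited (circles) and after the GC correction (diamonds): all 3 Csk(+/+) libraries lie above 0 and both Csk(f/f)-labelled ones below.

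The 49 genes were poorer in GC than most, with a median of 46.0% in the longest transcript against 49.7% over all genes tested, and they followed the GC trend among themselves. Across the 49 the log2 fold change had a Pearson r of 0.77 with GC content, a description over genes measured in the same 5 libraries, and 0.06 after the correction. The 16 genes lowest in GC (38.0 to 43.3%) had a median of -0.76 as deposited and -0.38 after correction. The 16 highest (48.1 to 56.0%) had -0.27 and -0.43. The correction thus brought the medians of the genes lowest and highest in GC together, while single genes changed rank. Among the lowest in GC, Cetn3 moved from -1.24 to -0.73 and Mad2l1 from -0.55 to -0.10. Among the highest, Plk1 moved from -0.27 to -0.53 and Ube2c from -0.36 to -0.61. The deposited FPKM of single genes given below includes this trend.

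**Figure D4:**
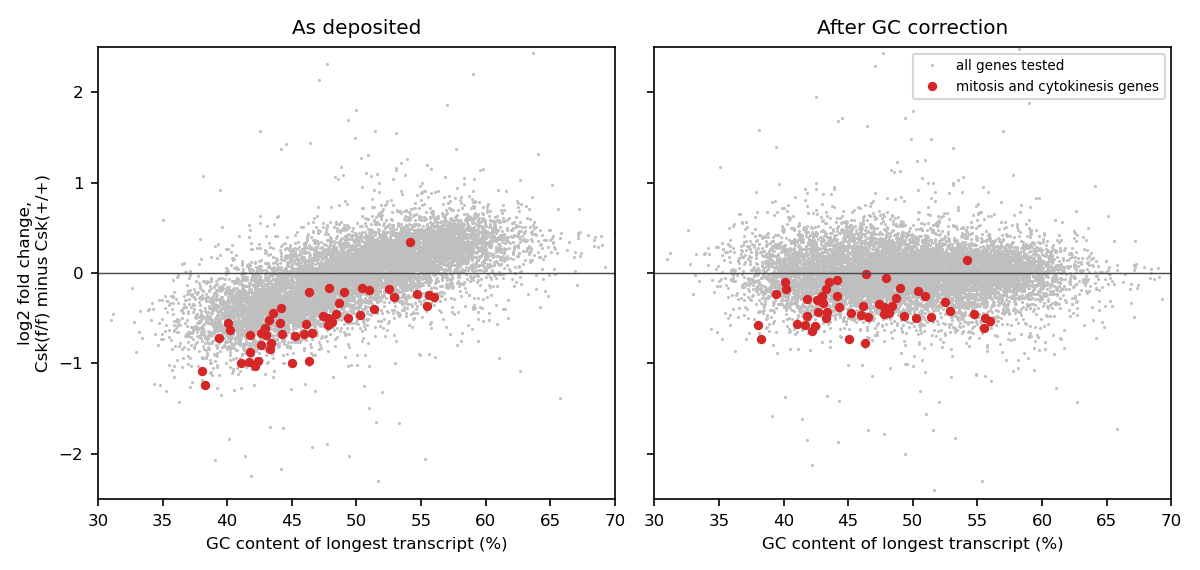
Log2 fold change, Csk(f/f)-labelled minus Csk(+/+), against transcript GC content for all genes tested (grey) and the 49 genes (red), as deposited and after the GC correction, with 40 and 38 of 10119 genes outside the axes. In the right panel the grey cloud is level and 48 of the 49 red points lie below 0.

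Many mitotic genes share a promoter layout in which CCAAT boxes, bound by the factor NF-Y, lie upstream of a cell cycle genes homology region (CHR). The CHR recruits the DREAM complex in resting cells and complexes of MuvB with B-MYB or FOXM1 in G2. RefSeq promoter windows on GRCm38.p6 (250 bases before to 50 after the annotated start) were matched by symbol to 41 of the 49 genes, as 43 windows, and none to Aurkb, Ccna2, Cdc25c, Incenp, Kif20a, Pbk, Spc24 and Tpx2. The letters searched on both strands were TTTGAA and TTCGAA for the CHR, and CCAAT, with 2 overlaps between matches in all. A CHR match was present in 36 of the 43 windows (83.7%) and in 19.2% of all 32851 windows. At least 1 CCAAT was in 35 (81.4%, against 37.4%), at least 2 were in 25 (58.1%, against 11.7%), and both motifs were in 32 (74.4%, against 7.52%). Of 50 CHR matches 35 lay within 50 bases of the start, and 57 of 84 CCAAT matches lay in the 100 bases before it. These are matches of letters, not bound sites.

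**Figure D5:**
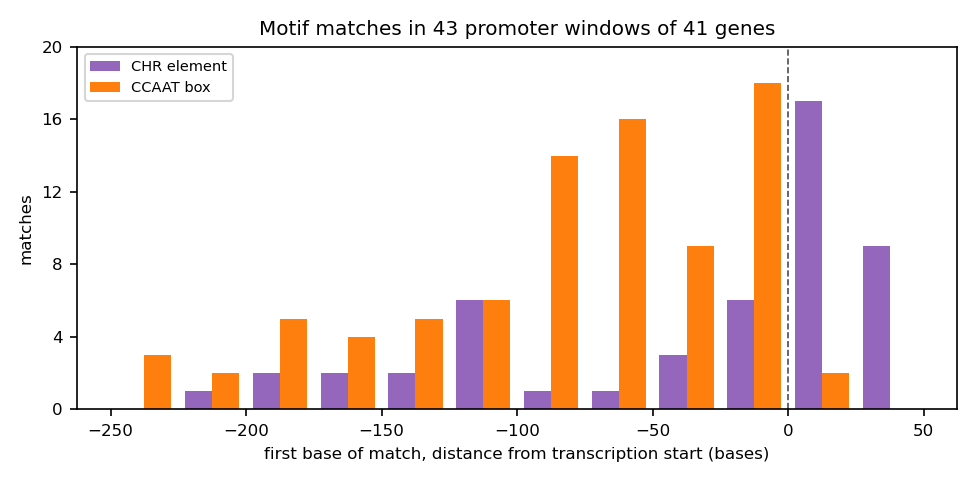
Number of motif matches by distance of their first base from the annotated start, in the 43 windows of 41 genes. CCAAT matches (orange) pile up before the start, with a median at -67.5, and CHR matches (purple) at it, with a median at 3.

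To show the layout, 7 windows are printed from 250 bases before to 30 after the start, 5′ to 3′ on the gene's own strand, with CHR and CCAAT matches on either strand in capitals (a match on the other strand reads TTCAAA or ATTGG). Ccnb2, Fbxo5 and Kif23 carry both motifs in the usual order and are genes with lower values. Cdc25b carries both and is the gene with higher values. Mzt1 carries both far upstream, Cetn3 has CCAAT matches only, and Nuf2 has neither in this window. They lie at chr9:70421525-70421804 (Ccnb2, minus strand), chr10:5805436-5805715 (Fbxo5, minus), chr9:61946770-61947049 (Kif23, minus), chr2:131186698-131186977 (Cdc25b, plus), chr14:99046107-99046386 (Mzt1, minus), chr13:81782997-81783276 (Cetn3, plus) and chr1:169531435-169531714 (Nuf2, minus) of GRCm38.p6. The deposited table was made on mm9.
Ccnb2: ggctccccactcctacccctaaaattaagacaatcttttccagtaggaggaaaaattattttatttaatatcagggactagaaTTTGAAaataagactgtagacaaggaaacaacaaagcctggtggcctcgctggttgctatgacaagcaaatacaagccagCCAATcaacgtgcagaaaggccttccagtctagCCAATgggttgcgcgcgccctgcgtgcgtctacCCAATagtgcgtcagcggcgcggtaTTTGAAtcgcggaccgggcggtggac
Fbxo5: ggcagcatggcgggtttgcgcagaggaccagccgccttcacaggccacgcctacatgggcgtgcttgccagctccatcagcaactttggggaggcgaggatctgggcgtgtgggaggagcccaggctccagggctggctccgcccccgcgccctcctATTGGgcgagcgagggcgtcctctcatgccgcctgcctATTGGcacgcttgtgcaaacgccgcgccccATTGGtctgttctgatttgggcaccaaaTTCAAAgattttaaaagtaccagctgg
Kif23: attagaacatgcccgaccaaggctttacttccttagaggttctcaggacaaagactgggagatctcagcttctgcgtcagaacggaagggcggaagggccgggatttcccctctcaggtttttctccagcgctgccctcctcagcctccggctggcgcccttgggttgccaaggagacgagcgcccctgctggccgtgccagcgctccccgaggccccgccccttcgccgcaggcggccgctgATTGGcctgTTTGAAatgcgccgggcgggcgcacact
Cdc25b: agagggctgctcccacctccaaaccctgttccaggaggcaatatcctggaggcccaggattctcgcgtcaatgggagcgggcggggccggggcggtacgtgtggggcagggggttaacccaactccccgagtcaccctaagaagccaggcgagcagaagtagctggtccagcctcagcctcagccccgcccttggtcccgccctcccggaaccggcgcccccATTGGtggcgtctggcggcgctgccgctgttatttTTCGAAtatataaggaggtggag
Mzt1: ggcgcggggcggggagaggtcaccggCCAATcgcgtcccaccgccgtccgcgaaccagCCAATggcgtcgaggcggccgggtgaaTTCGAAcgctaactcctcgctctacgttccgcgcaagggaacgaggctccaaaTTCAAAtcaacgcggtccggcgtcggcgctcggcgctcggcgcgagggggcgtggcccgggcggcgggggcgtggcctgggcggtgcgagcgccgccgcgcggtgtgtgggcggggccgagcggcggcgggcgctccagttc
Cetn3: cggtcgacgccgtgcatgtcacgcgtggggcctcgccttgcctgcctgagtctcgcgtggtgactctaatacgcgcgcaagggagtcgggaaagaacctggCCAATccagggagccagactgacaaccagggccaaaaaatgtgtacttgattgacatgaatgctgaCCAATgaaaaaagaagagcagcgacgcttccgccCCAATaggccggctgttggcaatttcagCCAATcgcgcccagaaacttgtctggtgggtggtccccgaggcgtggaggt
Nuf2: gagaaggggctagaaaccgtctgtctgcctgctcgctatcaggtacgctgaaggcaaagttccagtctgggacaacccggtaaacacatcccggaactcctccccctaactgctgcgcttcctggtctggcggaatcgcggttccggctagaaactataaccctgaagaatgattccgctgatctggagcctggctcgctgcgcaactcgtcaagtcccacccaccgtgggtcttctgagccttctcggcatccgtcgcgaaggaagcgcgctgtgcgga

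Genes with and without a CHR match covered overlapping ranges, and the difference between them was not tested. The 34 genes with a match had log2 fold changes from -1.09 to 0.35 with a median of -0.65, and the 7 without one (Birc5, Ccnb1, Cenpe, Cetn3, Mad2l1, Nuf2 and Nusap1) had values from -1.24 to -0.39 with a median of -0.61. After the GC correction the medians were -0.44 and -0.34.

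Mitotic entry is set off by CDK1 bound to cyclin A2 or the B cyclins, and all 4 of these genes were lower at an unadjusted p under 0.05 (median -0.50, and -0.37 with 3 of 4 after the GC correction), against 13.6% of all genes as deposited and 5.07% corrected. Ccna2, the cyclin of S phase and early mitosis, stood at 68.2, 59.3 and 60.6 FPKM against 44.4 and 39.7 (log2 fold change -0.56 ± 0.13, SE). For Cdk1, the mitotic kinase itself, the values were 29.9, 28.7 and 28.4 against 22.4 and 18.4 (-0.49 ± 0.14). Ccnb2 had 60.2, 61.2 and 76.0 against 43.8 and 48.4 (-0.50 ± 0.15), and its difference hardly moved with the GC correction (-0.47). As deposited the groups of libraries did not overlap in any of the 4, where 24.5% of all genes were lower in that way. After the GC correction they overlapped in Ccnb1 and not in the other 3 (13.9% of all genes). Ccnb1, the major B cyclin, had 43.4, 41.9 and 48.5 against 33.4 and 34.3, and the correction took its difference from -0.39 to -0.08.

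The CDC25 phosphatases remove the inhibitory phosphates from CDK1, and the 2 family members went opposite ways. Cdc25c was at 6.91, 4.98 and 7.49 FPKM against 3.96 and 4.07 (-0.56 ± 0.21). Cdc25b was at 61.0, 70.3 and 58.0 against 83.4 and 77.2 (0.35 ± 0.13), so all of the first 3 values lie under the other 2. After the GC correction Cdc25c was at -0.25 and Cdc25b at 0.15, and the groups overlapped in both. Cdca3, which promotes entry by helping to degrade the CDK1 inhibitor WEE1, had 65.9, 70.5 and 67.1 against 59.1 and 59.3, a small difference (-0.19 ± 0.12) without overlap.

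All 6 mitotic kinase genes were below 0, and 4 were lower at an unadjusted p under 0.05, both as deposited (median -0.42) and after the GC correction (-0.41), against 13.6% and 5.07% of all genes. Bub1 and Aurka were among them both times, Ttk and Pbk before the correction alone, and Aurkb and Plk1 after it alone. Bub1, the checkpoint kinase that marks centromeric chromatin, stood at 7.46, 5.25 and 8.76 FPKM against 3.79 and 2.41 (-0.99 ± 0.26, and -0.56 ± 0.21 corrected). Ttk, the kinase that starts checkpoint signalling, had 5.30, 5.17 and 6.77 against 3.62 and 2.77 (-0.68 ± 0.21). The Aurora and Polo kinases differed less as deposited. Aurka, which acts at spindle poles, had means of 25.3 ± 1.66 (SD, n = 3) and 19.0 ± 3.52 (SD, n = 2). Aurkb, the kinase of the chromosomal passenger complex, had 60.3, 56.7 and 56.8 against 50.4 and 51.7 (-0.18 ± 0.12, and -0.32 corrected). Plk1, the Polo kinase, had means of 49.2 and 40.6, and Pbk 21.5 and 15.7. In each of the 6 both Csk(f/f)-labelled libraries lay below the other 3 on both scales, where 24.5% of all genes did as deposited and 13.9% corrected.

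The spindle checkpoint holds the anaphase-promoting complex in check until chromosomes are attached. Of the 5 genes of this group 3 were lower at an unadjusted p under 0.05 on each scale (medians -0.36 and -0.49), against 13.6% and 5.07% of all genes. Fbxo5 and Ube2c were among them both times, Mad2l1 before the GC correction alone and Cdc20 after it alone. Without Csk(+/+) replicate 3 the counts were 2 and 3, against 21.4% and 9.84%. Fbxo5 encodes EMI1, which blocks this complex before mitosis, and had 19.4, 15.4 and 16.2 FPKM against 9.33 and 6.83. Its log2 fold change was -0.99 ± 0.19 as deposited and -0.73 ± 0.15 corrected, and it was one of 5 genes (with Cetn3, Mzt1, Nuf2 and Prc1) lower at an unadjusted p under 0.05 in all 21 fits described in the closing section. Mad2l1, which encodes the checkpoint protein MAD2, had 60.7, 52.1 and 55.1 against 40.1 and 35.6. Its groups stayed apart after the correction, at a difference of -0.10. Cdc20 and Ube2c, the activator and the ubiquitin-conjugating enzyme of the complex, are rich in GC and showed the reverse. Cdc20 had 77.3, 79.2 and 102 against 77.2 and 67.0, so that the groups nearly touch (-0.25 as deposited, -0.49 corrected), and Ube2c had means of 84.2 and 65.1. Bub1b, whose product BUBR1 restrains CDC20, overlapped between groups, with 44.6, 44.1 and 37.9 against 35.0 and 40.3.

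Kinetochores are built on centromeres marked by the histone CENP-A and grip microtubules through the 4-part NDC80 complex. Of the 7 kinetochore genes, all were below 0 and 5 were lower at an unadjusted p under 0.05 (median -0.61), with 2 after the GC correction (-0.30). Of all genes 51.3% were below 0, and 13.6% and 5.07% were lower at that p on the respective scales. Without Csk(+/+) replicate 3 the kinetochore counts were 3 and 3, where 21.4% and 9.84% of all genes were lower. Nuf2 stood at 24.4, 21.2 and 19.5 FPKM against 12.2 and 8.95 (-0.98 ± 0.19, and -0.57 ± 0.14 corrected). Its partner Ndc80 had 9.76, 7.12 and 11.5 against 4.70 and 3.86 (-0.97 ± 0.23, and -0.59 corrected), and Spc25 had 21.6, 20.2 and 15.6 against 10.3 and 12.9 (-0.67 ± 0.19, and -0.30 corrected). As deposited these 3 subunits were each below the Csk(+/+) range in both Csk(f/f)-labelled libraries, where 24.5% of all genes were. The fourth, Spc24, overlapped, with 52.1, 47.9 and 64.0 against 48.8 and 41.6 (-0.26 ± 0.16, and -0.42 corrected). After the correction the groups overlapped in Spc25 and no longer did in Spc24. Cenpa had means of 53.5 ± 5.09 and 42.1 ± 4.83. Cenpe, a kinetochore motor, was low in all libraries, with means of 3.85 and 2.14. Cenpf was lower still, at 1.75 and 0.899.

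The chromosomal passenger complex corrects faulty attachments and later marks the cleavage plane. Its 3 genes beside Aurkb had a median of -0.23 (-0.34 corrected), with 1 lower at an unadjusted p under 0.05 on each scale (13.6% and 5.07% of all genes were). That gene was Birc5 as deposited and Incenp after the GC correction. Without Csk(+/+) replicate 3 the counts were 2 and 1, against 21.4% and 9.84% of all genes. Birc5, which encodes survivin, had 84.7, 86.5 and 108 FPKM against 72.9 and 60.4 (-0.47 ± 0.16, and -0.34 corrected), and its groups overlapped after the correction. The scaffold gene Incenp overlapped between groups (58.6, 58.3 and 45.1 against 43.5 and 47.6), with Csk(+/+) replicate 3 among the lower values, but did not overlap after the correction (-0.45). Cdca8, which encodes borealin, had 71.2, 65.5 and 73.2 against 62.5 and 62.1. This was a small gap without overlap as deposited, where 24.5% of all genes were lower in that way. After the correction the groups overlapped in Cdca8, at a difference of -0.06.

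Kinesins move along or take apart spindle microtubules. All 7 kinesin genes lay below 0 with no overlap between groups as deposited (24.5% of all genes were lower without overlap). After the GC correction the groups overlapped in Kif22 and Kif20b and not in the other 5 (13.9% of all genes). On both scales 5 were lower at an unadjusted p under 0.05 (medians -0.54 and -0.44), against 13.6% and 5.07% of all genes. Kif11 (Eg5), which pushes the spindle poles apart, had 17.9, 14.8 and 18.7 FPKM against 10.4 and 5.88 (-1.03 ± 0.24, and -0.64 corrected). Kif23 (MKLP1), the motor subunit of centralspindlin, had 20.7, 16.9 and 22.7 against 11.6 and 8.08 (-0.97 ± 0.21), and kept most of this after correction (-0.78 ± 0.21). Kif4, a chromokinesin, had 12.4, 10.9 and 12.0 against 7.91 and 7.64 (-0.54 ± 0.16). The cytokinesis motor Kif20a had means of 24.3 and 17.5, and the microtubule depolymerase Kif2c 16.7 and 11.8. Kif22 (Kid), the most abundant of the 7, had 38.2, 45.3 and 45.0 against 37.3 and 36.3 (-0.21 ± 0.14). Kif20b was low (1.55, 1.83 and 4.14 against 1.22 and 0.857, with an estimated 47 fragments in its lowest library), and its highest value was that of Csk(+/+) replicate 3.

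Spindle microtubule proteins were lower in all 6 genes at an unadjusted p under 0.05 (median -0.68), of which 2, Nusap1 and Tpx2, were lower after the GC correction (median -0.44, 6 of 6 below 0). The shares of all genes were 13.6% and 5.07%. Nusap1, which bundles microtubules near chromosomes, stood at 24.5, 20.4 and 27.1 FPKM against 15.3 and 10.2 (-0.88 ± 0.21, and -0.48 corrected). Tpx2, the activator of Aurora A, had 30.4, 26.9 and 28.6 against 19.0 and 18.8 (-0.57 ± 0.14, and -0.46 corrected), the 2 lower values being almost equal. Aspm, Hmmr, Ckap2 and Ckap2l had Csk(+/+) means of 2.96 to 11.7 and Csk(f/f)-labelled means of 1.49 to 6.99. In these 4 Csk(+/+) replicate 3 was the highest library and Csk(f/f) replicate 2 the lowest.

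Cytokinesis begins with the central spindle, which PRC1 bundles and centralspindlin (KIF23 with RACGAP1) organizes so that ECT2 can activate RhoA. Of the 4 genes in this group 3 were lower at an unadjusted p under 0.05 (median -0.66), and 2 after the GC correction (-0.31), against 13.6% and 5.07% of all genes. With that correction and without Csk(+/+) replicate 3, 1 was lower (Prc1), against 9.84% of all genes. Prc1 had 22.5, 19.9 and 19.3 FPKM against 12.0 and 10.1 (-0.84 ± 0.16, and -0.50 ± 0.12 corrected). Anln, the anillin of the contractile ring, had 3.47, 2.87 and 3.58 against 1.95 and 1.39 (-0.69 ± 0.20), and Ect2 had means of 6.21 and 3.73. Racgap1 had 43.4, 45.7 and 43.4 against 40.0 and 36.3 (-0.21 ± 0.12). After the correction its difference was -0.01, where that of its partner Kif23 was -0.78, a gap between the 2 that was not tested.

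Mitotic chromosomes need topoisomerase II alpha to untangle sister DNA and carry Ki-67 as a surface coat. Top2a had 80.6, 75.2 and 91.3 FPKM against 59.0 and 38.5 (-0.77 ± 0.19, and -0.43 corrected), with the 2 Csk(f/f)-labelled libraries further apart than the Csk(+/+) ones. Mki67, the usual marker of cycling cells, had 22.0, 36.0 and 45.2 against 27.3 and 15.2 (-0.66 ± 0.33, limma adjusted p = 0.277, and -0.48 corrected). Its groups overlap on both scales. Of these 2 genes, 1 (Top2a) was lower at an unadjusted p under 0.05 as deposited and 0 after the GC correction. The shares of all genes were 13.6% and 5.07%.

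At the centrosome, Cetn3 encodes a centrin of the centriole lumen and Mzt1 a small subunit that helps the gamma-tubulin ring complex to nucleate microtubules. They had the lowest GC content of the 49 and the most negative log2 fold changes. Cetn3 stood at 43.3, 32.0 and 47.3 FPKM against 19.1 and 14.3 (-1.24 ± 0.21, 95% interval -1.72 to -0.76). Mzt1 had 16.0, 13.8 and 14.8 against 7.33 and 5.67 (-1.09 ± 0.18). The groups lay well apart in both. After the GC correction they were at -0.73 ± 0.15 and -0.57 ± 0.13, within the range of the other genes. Without these 2 the median of the remaining 47 was -0.55.

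Other genes of the pathway were read from 8 lists of further kinetochore, cohesin and condensin, anaphase-promoting complex, spindle, centrosome, entry control and transcription factor genes. Of 149 tested, 47 were lower and 4 higher at an unadjusted p under 0.05, and 20 and 3 after the GC correction (medians -0.30 and -0.13). Over all genes 13.6% were lower and 8.07% higher, and 5.07% and 4.89% after the correction, and the counts of each list are to be set beside these. By limma 0 passed over all genes. Of the 22 further spindle and cytokinesis genes, 22 were below 0 as deposited and 20 after the correction (medians -0.36 and -0.38), and 9 and 10 were lower at that p. Cep55, which guides the final abscission, had 17.7 ± 2.75 FPKM (SD, n = 3) against 8.35 ± 1.20 (SD, n = 2), and Shcbp1, a partner of centralspindlin, had 12.7 ± 2.01 against 5.01 ± 1.40. Inner kinetochore genes had 7 of 16 lower and 0 higher, and 2 and 0 corrected (medians -0.40 and -0.19), among them Cenpk at 6.46 and 2.02. Cohesin, condensin and separase genes had 7 of 17 lower, and 2 corrected (-0.53 and -0.15), among them the condensin gene Ncapg at 16.6 and 6.61. The further centrosome genes had 9 of 30 lower, and 3 lower and 1 higher corrected (-0.30 and -0.19). Among them Plk4, the kinase of centriole duplication, was at 9.82 and 5.24. Outer kinetochore and checkpoint genes had 8 of 18 lower, and 2 lower and 1 higher corrected (-0.40 and -0.14). Other genes of entry control had 2 of 11 lower, and 0 corrected (-0.23 and -0.11). Subunits of the anaphase-promoting complex, which cells also use outside mitosis, had 1 lower and 2 higher of 14, and 0 and 1 corrected (medians -0.05 and 0.04). Anapc7 was at 27.9 ± 0.327 and 36.9 ± 1.97.

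Markers of the neighbouring states were measured beside these genes. Their counts at an unadjusted p under 0.05 are to be set beside 13.6% of all genes lower and 8.07% higher, and 5.07% and 4.89% corrected. Dark zone genes that are not cell cycle genes had a median of 0.05 over 7 tested (-0.01 corrected), with 2 lower (Hmgb2 and Polh) and 0 higher on both scales. They summed to 1036 to 1164 FPKM in Csk(+/+) and 1035 to 1109 in the Csk(f/f)-labelled libraries. Cxcr4, the receptor that holds cells in the dark zone, was at 58.6 to 65.2 in all 5. Light zone genes had a median of 0.33 over 13 (0.07 corrected), with 5 higher and 2 lower, or 2 and 0 corrected. Their sums as deposited, in which the most abundant genes weigh most, were 11755 to 15423 and 17102 to 17158. These sums include the GC trend, and the list has a median GC content of 52.9%, against 49.7% over all genes tested. Of 5 tested naive B cell genes, which resting cells express, 2 were higher and 1 lower as deposited, and 2 and 0 after correction. Klf2 had 6.69, 7.06 and 6.20 against 13.2 and 13.3, and Ccr7 0.197, 0.372 and 0.262 against 2.07 and 1.84, and the list summed to 377 to 425 and 455 to 510. General germinal centre B cell genes had 2 of 10 lower (Rgs13 and Ms4a1) and 0 higher as deposited, and 2 lower (Rgs13 among them) and 0 higher corrected. They summed to 3543 to 4733 and 4496 to 4730. Other cell types had few tested markers: T cell genes summed to 109 to 124 and 106 to 107 (nearly all Lck), macrophage genes to 12.4 to 21.5 and 24.6 to 24.7 with Mertk at 0 and Lyz2 higher at that p, neutrophil genes to at most 2.71 with Mpo and Camp at 0, plasma cell genes to 220 to 258 and 199 to 221, and erythroid genes to 239 to 1260 and 270 to 686. Plasma cell genes had 1 lower and 1 higher of 3 tested, and 0 and 1 corrected. Erythroid genes had 2 lower and 0 higher of 7, and 0 and 0 of 5 corrected. The part of these states and cell types in the lower mitotic transcripts was not tested.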

How the data were processed

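Total RNA, taken in TRIzol and made into libraries with an NEBNext Ultra kit per the labels, from sorted light zone B cells was sequenced in 5 libraries, 3 Csk(+/+) and 2 labelled Csk(f/f). The authors deposited FPKM per gene, 1 column per library, made with TopHat2 2.0.8 and Cufflinks 2.1.1 on mm9, per the submitters' processing notes; the annotation is not given in the sources used here. The design text calls the libraries biological replicates. A repeated header line was left out. Genes at 1 FPKM or more in at least 2 libraries entered a limma fit (version 3.58.1, R 4.3.3) of log2(FPKM + 1) values (trended prior, Benjamini-Hochberg adjustment over all genes tested, called under 0.05). This code was first tested on simulated data. A fold change on this scale understates that of low genes. For the GC correction, deviations of a library from each gene's mean were smoothed by lowess (span 0.3) over GC content and the curve was subtracted, with GC taken from the longest GENCODE transcript on GRCm38, which 98.8% of tested genes had. Depth was estimated from the spacing of the lowest FPKM values. Members and lists were chosen with earlier results of these data known. Genes printed in every library were, per role, the one with the smallest p and the one with the highest level, then Cetn3, Mzt1 and up to 20 by p, under 0.05, whose groups do not overlap; others were added after their values were seen. Up to 2 genes per further list were chosen by p. Alternatives tried were other pseudocounts, filters and scalings, array weights, a replicate block and each library left out.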

Additional observations from a re-analysis of the deposited data

How the results depend on the processing

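The 8 genes past the threshold among all genes became 671 with array weights, 492 with the replicate number as a block, 5 without a filter and 5 to 411 with 1 library left out. With the GC correction they became 162 with the replicate block, 40 without Csk(+/+) replicate 3 and 5 without either Csk(f/f) replicate. Of the 49 mitosis and cytokinesis genes, 14 passed with array weights, 13 with the replicate block, 2 (Cetn3 and Fbxo5) with the GC correction and the replicate block, and 0 to 8 with 1 library left out. The 35 lower at an unadjusted p under 0.05 became 13 to 34 with 1 library left out. With the GC correction as well they became 21 and 23 without Csk(+/+) replicates 1 and 3, and 16 and 5 without Csk(f/f) replicates 1 and 2. The median of the 49 genes, -0.56, became -0.38 with a pseudocount of 5 and -0.42 with the GC correction. It ran from -0.61 to -0.45 with 1 library left out. With that correction it was -0.42, -0.28 and -0.29 without Csk(+/+) replicate 2, Csk(+/+) replicate 3 and Csk(f/f) replicate 2. With that correction and the replicate block it was -0.28. Across genes, the differences between replicates 1 and 2 in the 2 groups were not correlated (r = -0.02). Over 2 pairs this cannot show whether same-numbered libraries were handled together, and the labels give only replicate numbers. The block also takes Csk(+/+) replicate 3 out of the comparison.

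The sign turned for 5 genes, all under the GC correction: without Csk(+/+) replicate 3 and with the replicate block, Ccnb1 was at 0.020 and 0.018, Cdca8 at 0.040 and 0.039, Cenpf at 0.0069 and 0.0042, Kif20b at 0.067 and 0.059 and Racgap1 at 0.031 and 0.030, and Racgap1 was at 0.010 and 0.052 without Csk(+/+) replicate 2 and Csk(f/f) replicate 2. The other 43 of the 48 genes below 0 stayed there in each of the 21 fits that tested them. The cause of these changes was not tested. Depth limits the lowest genes, such as Kif20b with an estimated 47 fragments in 1 library.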

Other observations

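Genes of DNA replication, the step before mitosis, had a median log2 fold change of -0.03 over 34 tested, as deposited, and -0.07 after the GC correction. At an unadjusted p under 0.05 by limma 10 were lower and 1 higher, which became 1 lower (Mcm4) and 0 higher after the correction, and 0 passed over all genes. Of all genes 13.6% were lower and 8.07% higher as deposited, and 5.07% and 4.89% after the correction. The count lower thus lay above that share as deposited, and 1 of 34 after the correction is too few to place against it. Groups did not overlap in 13 genes lower and 4 higher as deposited, and in 8 and 3 after the correction. Of all genes 24.5% were lower and 20.7% higher in that way as deposited. After the correction 13.9% of all genes were lower, and 1481 of 10119 were higher. Mcm4, a subunit of the replicative helicase, had 87.7, 72.9 and 73.8 against 48.0 and 43.4 FPKM (-0.76 ± 0.14, SE, and -0.52 corrected). Dtl, an adaptor for the destruction of the licensing factor CDT1, had 15.4 ± 2.41 (SD, n = 3) and 9.02 ± 0.915 (SD, n = 2). The difference between the replication and the mitosis genes was not tested.

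Of 11 cell cycle inhibitors tested, 1 was lower and 0 higher at that p as deposited (median -0.27). That count is no more than the 13.6% of all genes that were lower. After the correction 2 were lower and 1 higher (median -0.13), where 5.07% and 4.89% of all genes were. These counts are too small to place against those shares. Cdkn1a, which encodes the CDK inhibitor p21, had 10.7, 8.59 and 8.08 FPKM against 5.73 and 6.56 (-0.50 ± 0.19, and -0.70 corrected). Cdkn1b, which encodes p27, had 6.41 ± 1.43 and 4.25 ± 0.319 (-0.48, and -0.13 corrected). Among 21 regulators of mitotic transcription, 4 were lower and 2 higher (median -0.10, and -0.07 with 1 lower and 0 higher after correction), counts near the shares of all genes. Nfyb, a subunit of the CCAAT-binding factor, had means of 14.5 and 9.54 (-0.55, and -0.18 corrected). Rbl1, a member of the DREAM complex, had 15.9 and 10.2 (-0.60, and -0.21 corrected).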
